A study of Mus musculus with 9 samples.

Results

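Platelet genes were followed in lymphomas of IµBcl6 mice through 7 members, Pf4, Ppbp, Itga2b, Itgb3, Gp9, Gp1bb and Gp6, which were taken by symbol from a table of raw counts of 41128 genes, where all 7 were found. RNA from 3 Bcl6 tumors (genotype IµBcl6 Smc3 wt/wt) and 6 Smc3/Bcl6 tumors (genotype IµBcl6 Smc3 wt/-) was sequenced as 1 library per tumor. Mice of both groups carried the IµBcl6 transgene, which drives Bcl6 in B cells, and per the study's methods also a Cγ1-Cre allele, which acts in B cells activated toward the germinal center, so that loss of an Smc3 allele was directed to those cells and not to megakaryocytes or platelets. The samples were tumor tissue of a lymph node (labelled mesenteric for tumor 1 of each genotype and simply lymph node for the other 7, although the study's text calls all of these lymphomas mesenteric), no treatment is named, the age of the mice was not given in the sources used here, and no sort of B cells before RNA extraction was stated for these libraries. The labels do not say more about how the tumors of a genotype are related, so p-values measure only the spread between these samples, which may be partly technical.

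Megakaryocytes are large bone marrow and spleen cells that shed platelets into the blood, and platelets have no nucleus but carry RNA from the megakaryocyte. Platelets bind exposed von Willebrand factor through the glycoprotein Ib-IX-V complex (Gp1ba, Gp1bb, Gp9 and Gp5) and collagen through Gp6, and bind fibrinogen through the integrin formed by Itga2b and Itgb3. On activation they release alpha granules that hold the chemokines Pf4 and Ppbp. Megakaryocytes and erythroid cells share a progenitor and the transcription factor Gata1, whose partners in megakaryocytes include ETS factors such as Fli1, which is why the members were set beside Alas2, the erythroid enzyme that starts heme synthesis. Mpo, the myeloperoxidase of granulocyte precursors, served as a marker of another marrow lineage.

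The sequence upstream of these genes is shown because GATA and ETS factors are known regulators of platelet genes and because Itga2b, Gp9 and Gp1bb (Gp9 and Gp1bb at low counts) varied together across the tumors. The 6 members with an entry in the RefSeq promoter table (GRCm38.p6) were searched over the 250 bases before the start used in that table. The search was for AGATAA, which GATA factors bind, and for GGAAGT, which ETS factors bind, on both strands. On the other strand the ETS letters read ACTTCC. Capitals mark the match, no window held overlapping matches, and each sequence runs 5′ to 3′ on the gene's strand.
Pf4: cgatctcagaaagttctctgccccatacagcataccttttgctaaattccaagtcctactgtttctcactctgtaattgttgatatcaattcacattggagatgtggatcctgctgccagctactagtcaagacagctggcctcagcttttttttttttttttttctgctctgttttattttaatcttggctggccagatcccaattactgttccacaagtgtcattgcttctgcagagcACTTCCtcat
Ppbp: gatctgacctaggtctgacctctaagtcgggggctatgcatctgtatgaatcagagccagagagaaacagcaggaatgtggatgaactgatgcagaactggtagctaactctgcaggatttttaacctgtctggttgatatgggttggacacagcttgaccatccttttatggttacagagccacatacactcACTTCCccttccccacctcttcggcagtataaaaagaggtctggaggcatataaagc
Itga2b: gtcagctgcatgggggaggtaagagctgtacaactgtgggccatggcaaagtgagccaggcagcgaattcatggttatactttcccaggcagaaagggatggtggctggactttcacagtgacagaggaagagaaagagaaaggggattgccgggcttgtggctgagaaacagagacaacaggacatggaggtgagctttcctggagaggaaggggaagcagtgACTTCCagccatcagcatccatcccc
Gp9: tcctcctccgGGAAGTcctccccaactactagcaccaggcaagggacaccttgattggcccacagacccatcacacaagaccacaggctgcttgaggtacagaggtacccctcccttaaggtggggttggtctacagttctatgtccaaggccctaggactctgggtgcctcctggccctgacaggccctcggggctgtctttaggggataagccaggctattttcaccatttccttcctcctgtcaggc
Gp6: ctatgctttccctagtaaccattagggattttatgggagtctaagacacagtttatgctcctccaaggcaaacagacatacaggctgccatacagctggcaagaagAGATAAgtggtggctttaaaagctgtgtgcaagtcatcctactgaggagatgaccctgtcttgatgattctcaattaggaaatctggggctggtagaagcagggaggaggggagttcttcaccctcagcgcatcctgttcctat
These windows lie at chr5:90772185-90772434 (plus strand) for Pf4, chr5:90768268-90768517 (plus) for Ppbp, chr11:102469884-102470133 (minus) for Itga2b, chr6:87777820-87778069 (plus) for Gp9 and chr7:4397745-4397994 (minus) for Gp6. The ETS letters were found in 4 of the 6 windows, at 10 bases before the start in Pf4, 57 in Ppbp, 26 in Itga2b and 240 in Gp9, against 19.7% of 32851 windows of the same length. The GATA letters were found in 1 of the 6, at 144 bases before the start of Gp6, against 9.99% of all windows, and the Gp1bb window (chr16:18622404-18622653, minus strand) held neither. Most of the Itga2b window, with its match, lies inside the gene as placed by GENCODE M21 (chr11:102453297-102470122). The start of Itga2b there differs from that of the RefSeq table. Such a match describes letters and not a bound site. Itgb3 has no entry in that table.

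The libraries held between 10156728 and 17774577 counts, and 3 counts, taken as the limit of detection, corresponded to at most 0.317 CPM (counts scaled to a common depth by edgeR, on library sizes scaled with TMM). Smc3/Bcl6 tumor 2 stood apart from the rest: over 13975 genes, how far it deviated from the others had a Spearman correlation of -0.465 with exon length, against -0.143 to 0.199 in the other 8, so that long genes were low in it and short genes high. Summed over the 5 B-cell genes listed (such as Cd79a and Pax5), the level was 1821 to 6527 CPM in Bcl6 and 3609 to 8481 CPM in Smc3/Bcl6 tumors. The members were rare beside this, with a sum over all 7 of 18.1 to 34.3 CPM in Bcl6 and 3.59 to 50.6 CPM (median 22.9) in Smc3/Bcl6 tumors. In bulk tissue, fewer cells of a type and less RNA per cell cannot be told apart.

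The alpha-granule chemokines were highest in Smc3/Bcl6 tumor 6. Pf4 (ENSMUSG00000029373.6, chr5:90772435-90773383 of GRCm38, plus strand), a chemokine that binds heparin and that is often used to mark the megakaryocyte lineage, stood at 1.41, 0.863 and 1.04 CPM in the Bcl6 tumors in the order 1 to 3 (16, 16 and 11 counts), with a lowest value of 0.423, a median of 2.00 and a highest value of 6.85 CPM in the Smc3/Bcl6 tumors. Tumors 4 and 6 of Smc3/Bcl6, with 6.64 and 6.85 CPM from 100 and 103 counts, lay far above the rest, tumor 5 followed with 2.68 CPM, and the other 3 overlapped with or fell below Bcl6. Ppbp (ENSMUSG00000029372.6, chr5:90768518-90770063, plus strand), the precursor of a neutrophil-attracting chemokine, had 2.29, 0.593 and 3.21 CPM in the Bcl6 tumors and 0.423 at the lowest, 1.26 at the median and 14.0 CPM at the highest in Smc3/Bcl6. A single library carried that highest value, since tumor 6 held 210 of the 376 Ppbp counts and tumor 4 had 2.99 CPM, below Bcl6 tumor 3. Pf4 starts 2372 bases after the end of Ppbp on the same strand, and the levels of these neighbors correlated across the 9 tumors (Pearson r = 0.703, exact permutation p = 0.0497; Spearman rho = 0.633, p = 0.0760), but with r = 0.259 once the 2 tumors farthest from the median of Pf4 were left out. Per kilobase of exon, the ratio of Pf4 to Ppbp ran from 0.486 in Bcl6 tumor 3 to 7.30 in Smc3/Bcl6 tumor 5, which had 34 Pf4 counts and 7 Ppbp counts.

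**Figure D1:**
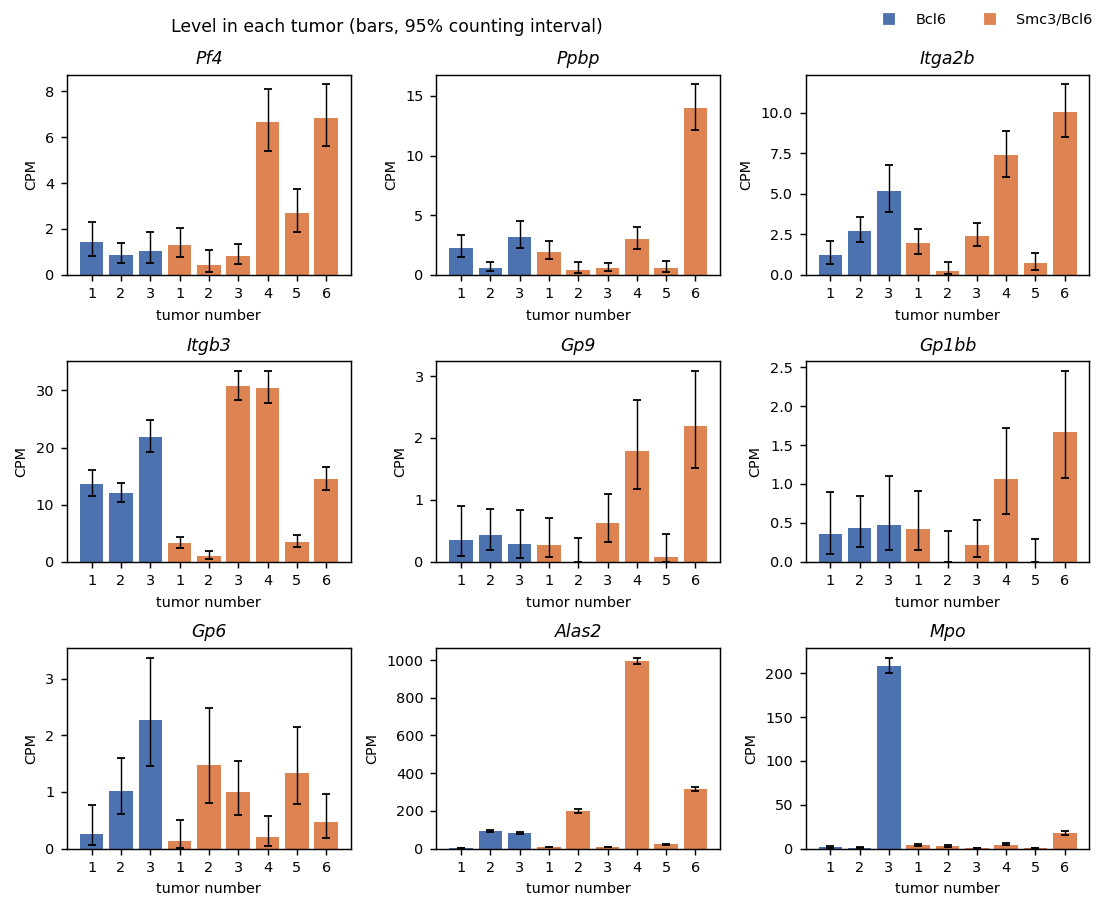
Each panel plots the level of a gene in CPM (y axis, linear from 0) in the 9 tumors (x axis, tumor number within the genotype; blue Bcl6, orange Smc3/Bcl6); bars are the level in a library and whiskers its exact 95% Poisson interval, which covers counting error only. Smc3/Bcl6 tumor 6 is the highest for Pf4, Ppbp, Itga2b, Gp9 and Gp1bb, whereas Itgb3 peaks in Smc3/Bcl6 tumor 3 (30.8 CPM) and Gp6 in Bcl6 tumor 3 (2.26 CPM).

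Of the fibrinogen receptor subunits, Itga2b had the same highest tumor and Itgb3 did not. Itga2b (ENSMUSG00000034664.8, chr11:102453297-102470122, minus strand), the alpha subunit that marks megakaryocytes and their progenitors, had 1.23, 2.70 and 5.19 CPM in the Bcl6 tumors and between 0.211 and 10.05 CPM (median 2.17) in Smc3/Bcl6. Tumors 6 and 4 of Smc3/Bcl6 were again the highest, with 10.05 and 7.37 CPM, Bcl6 tumor 3 came next, and Smc3/Bcl6 tumor 2 held only 2 counts. Itgb3 (ENSMUSG00000020689.4, chr11:104608000-104670476, plus strand), the beta subunit, is also made by macrophages, osteoclasts and endothelial cells, where it pairs with another alpha subunit. It had 13.6, 12.02 and 21.9 CPM in the Bcl6 tumors and a lowest value of 1.06, a median of 8.99 and a highest value of 30.8 CPM in Smc3/Bcl6. Within Smc3/Bcl6 the values split, with tumors 3 and 4 at 30.8 and 30.5 CPM, tumor 6 at 14.5 CPM and tumors 1, 2 and 5 between 1.06 and 3.47 CPM, below every Bcl6 tumor. Per kilobase of exon, the level of Itgb3 exceeded that of Itga2b in all 9 tumors, by a ratio of 1.33 in Smc3/Bcl6 tumor 6 and 1.55 in tumor 1 up to 10.2 in Bcl6 tumor 1 and 11.9 in Smc3/Bcl6 tumor 3. The 6 macrophage genes summed to 2549 CPM in Smc3/Bcl6 tumor 3 and to 306 CPM in Bcl6 tumor 1, the tumors with the 2 highest ratios, and the correlation of Itgb3 with their mean was r = 0.279 over 9 tumors (exact permutation p = 0.452; rho = 0.483, p = 0.194; r = 0.134 without the 2 tumors farthest from the median). The 5 endothelial genes summed to 98.0 to 115 CPM in Bcl6 and 16.9 to 323 CPM in Smc3/Bcl6 tumors (323 in tumor 4, 188 in tumor 1, 158 in tumor 6, 130 in tumor 3, 24.2 in tumor 5 and 16.9 in tumor 2), most of it from Pecam1, which platelets and leukocytes also carry, while the endothelial cadherin Cdh5 was at 0.57 to 3.99 CPM. The part of macrophages or endothelial cells in the levels of Itgb3 and of the other members was not tested.

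The subunits of the von Willebrand factor receptor were near the limit of detection, and neither passed the filter on low counts. Gp9 (ENSMUSG00000030054.3, chr6:87778072-87779768, plus strand) had 4, 8 and 3 counts in the Bcl6 tumors, equal to 0.352, 0.431 and 0.283 CPM. In Smc3/Bcl6 it ranged from 0 in tumor 2, where the floor of 3 counts is 0.317 CPM, over a median of 0.451 to 2.20 CPM in tumor 6. Only tumors 4 and 6, with 27 and 33 counts (1.79 CPM, 95% Poisson interval 1.18 to 2.61, and 2.20 CPM, 1.51 to 3.08), exceeded 1 CPM, and their intervals overlapped each other and lay above the levels of the other 7 tumors. Gp1bb (ENSMUSG00000050761.3, chr16:18620317-18622403, minus strand) followed with 0.352, 0.431 and 0.472 CPM in Bcl6 and 0 to 1.66 CPM (median 0.312) in Smc3/Bcl6. It had no counts in tumors 2 and 5 of Smc3/Bcl6, and tumors 4 and 6 were the highest with 16 and 25 counts. These Gp1bb values are uncertain, since 91.1% of its exon length in GENCODE M21 is shared with Sept5, a neighbor on the same strand, and how reads in shared exons were assigned is not given in the sources used here.

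Gp6 ran in another order than the rest. Gp6 (ENSMUSG00000078810.3, chr7:4363965-4397744, minus strand), the collagen receptor of platelets, had 0.264, 1.02 and 2.26 CPM in the Bcl6 tumors (3, 19 and 24 counts) and 0.139 to 1.48 CPM (median 0.728) in Smc3/Bcl6. Bcl6 tumor 3 was the highest and Smc3/Bcl6 tumor 2, the lowest tumor for the other 6 members (for Gp1bb tied with tumor 5 at 0), was the second highest with 14 counts. Tumors 4 and 6 of Smc3/Bcl6, rich in the other receptors, had 3 and 7 Gp6 counts. The exons of Gp6 span 5900 bases in the annotation, close to the 5901 of Itgb3, which was lowest in tumor 2. The part of the length-dependent shift of tumor 2 in these levels was not tested.

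Compared per kilobase of exon and averaged over the 9 tumors, the order of the levels was Pf4 (3.40 CPM per kilobase), Ppbp (2.72), Itgb3 (2.47), Gp9 (0.761), Itga2b (0.648), Gp1bb (0.245) and Gp6 (0.154). These averages lean on single tumors, because the highest tumor exceeded the median tumor 7.20-fold for Ppbp, 6.23-fold for Gp9, 5.21-fold for Pf4, 4.19-fold for Itga2b and 4.00-fold for Gp1bb, and 2.26-fold for Itgb3 and 2.29-fold for Gp6. The neighbors Pf4, Ppbp and Itgb3 changed places from tumor to tumor. The place of Gp1bb is not secure, because 92.9% of its exon length is shared with other genes.

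Across tumors, Itga2b, Gp9 and Gp1bb were the members most alike, and Gp6 differed from all the others. Correlations of log2 CPM over the 9 tumors were computed for 21 pairs of members. The highest was that of Itga2b with Gp1bb (r = 0.926, exact permutation p = 0.000540; rho = 0.946, p = 0.000419; r = 0.851 without the 2 tumors farthest from the median of Itga2b). Gp9 with Gp1bb reached r = 0.911 (exact permutation p = 0.00226) and Itga2b with Gp9 r = 0.899 (exact permutation p = 0.00117). These values are uncertain, since Gp9 and Gp1bb did not pass the filter on low counts, with at most 33 and 25 counts in a tumor. Gp1bb also shares 91.1% of its exon length with Sept5. Pf4 had r between 0.645 and 0.747 with Ppbp, Itga2b, Gp9 and Gp1bb, and these relations rested on 2 tumors, since r was between -0.0059 and 0.259 without the 2 tumors farthest from the median of Pf4. Itgb3 was closest to its integrin partner Itga2b (r = 0.795, exact permutation p = 0.0135; rho = 0.683, p = 0.0503; r = 0.706 without the 2 farthest). Without Smc3/Bcl6 tumor 2, which was low for these genes, the same relations had r = 0.903 for Itga2b with Gp1bb, 0.850 for Itga2b with Gp9 and 0.616 for Itga2b with Itgb3. Gp6 had negative values with all 6 other members, from -0.134 with Itgb3 to -0.520 with Gp1bb, with exact permutation p-values of at least 0.157, and without tumor 2 its value with Itgb3 was 0.140.

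**Figure D2:**
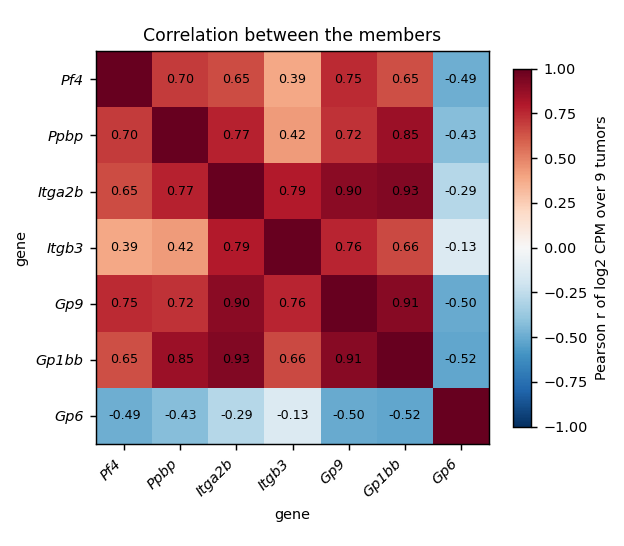
The matrix gives Pearson r of log2 CPM over 9 tumors for each pair of the 7 members (both axes are genes; red positive, blue negative). Values among Pf4, Ppbp, Itga2b, Gp9 and Gp1bb run from 0.65 to 0.93, those of Itgb3 with Itga2b, Gp9 and Gp1bb lie in the same range, the values of Pf4 with the other 4 fall to 0.259 or less without the 2 tumors farthest from its median, and the row of Gp6 is negative throughout.

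By rank, tumor 6 of Smc3/Bcl6 was the highest for 5 of the 7 members and tumors 4 and 6 were the 2 highest for 4 of the 7 (Pf4, Itga2b, Gp9 and Gp1bb). Of the 14057 genes tested, 7.7% had these 2 tumors above the other 7, and of the 5 members tested 2 did, Pf4 and Itga2b. This grouping of tumors was seen in the data and has no label behind it. The order of the mean log2 CPM of the 7 members had Smc3/Bcl6 tumors 6 and 4 at the top (2.17 and 1.70), then Bcl6 tumor 3 (1.17), and Smc3/Bcl6 tumors 5 and 2 at the bottom (-0.26 and -1.12). Bcl6 tumors 1 and 2 lay close together at 0.40 and 0.47.

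The question of the design is whether the tumors of the 2 genotypes differ. For none of the 7 members were the groups separated, where 0.484% of the genes tested had groups that did not overlap. Pf4 averaged 1.10 ± 0.279 CPM over Bcl6 tumors (SD, n = 3) against 3.13 ± 2.91 CPM over Smc3/Bcl6 tumors (SD, n = 6), a log2 fold change of 1.50 (SE 0.91; unadjusted p = 0.129 and Benjamini-Hochberg adjusted p = 1.00 over all genes tested, by the quasi-likelihood test of edgeR). Its exact two-sided permutation p over the 84 splits of the tumors was 0.452. The other 4 members tested had log2 fold changes of 0.76 for Ppbp (SE 1.16), 0.32 for Itga2b (SE 1.01), -0.18 for Itgb3 (SE 0.91) and -0.63 for Gp6 (SE 0.86), each with an adjusted p of 1.00 in the same edgeR quasi-likelihood test. With the study's thresholds (unadjusted p below 0.1 and absolute log2 fold change above 0.56), 0 of the 5 members were higher, against 1.28% of all genes, and 0 were lower, against 0.868%. At an adjusted p below 0.05 the edgeR test called 0% of all genes, and at an unadjusted p below 0.05 it called 0.562% of them and 0 of the 5 members. Their median log2 fold change was 0.32, against 0.06 over all genes. For Gp9 and Gp1bb, fitted without the filter, the edgeR log2 fold changes were 1.21 and 0.43. Their differences in mean log2 CPM were 0.28 and -0.30 (exact permutation p = 0.786 and p = 0.690), so the sign for Gp1bb depended on the measure. The same held for Ppbp and Itga2b, whose mean log2 CPM over the same 9 tumors was lower in Smc3/Bcl6 (by -0.08 and -0.30). A difference of the size seen for Pf4 could not be told from the spread between tumors at this number of tumors.

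The call for Pf4 depended on the test used and on which tumors entered, and the direction for several members on which tumors entered. Pf4 passed the study's thresholds with DESeq2 (log2 fold change 1.54, unadjusted p = 0.0770, adjusted p = 1.00), with limma and a quality weight per tumor (1.605, unadjusted p = 0.0769, adjusted p = 0.563), and with edgeR without Smc3/Bcl6 tumor 2 (1.74, unadjusted p = 0.0543) or tumor 3 (1.69, unadjusted p = 0.0904). Leaving out Smc3/Bcl6 tumor 6 put Ppbp at -0.63 and Itga2b at -0.25 on this scale, Itga2b was also below 0 without Smc3/Bcl6 tumor 4 (-0.03) or Bcl6 tumor 1 (-0.13), and without Bcl6 tumor 3 Gp6 was at 0.22 and Itgb3 at 0.12. Itgb3 was also above 0 without Smc3/Bcl6 tumor 1 (0.02), 2 (0.06) or 5 (0.02). With the replicate block, which pairs replicates 1 to 3 of both genotypes and leaves out Smc3/Bcl6 tumors 4 to 6, the log2 fold changes of Pf4, Ppbp and Itga2b turned to -0.47, -1.09 and -1.21. In the same block Itgb3 was lower in Smc3/Bcl6 past the study's thresholds (log2 fold change -1.68, SE 0.85, unadjusted p = 0.0941, adjusted p = 0.983 by the quasi-likelihood test of edgeR). On the same 6 tumors without pairing, Pf4, Ppbp and Itga2b were at -0.36, -1.07 and -1.02 and Itgb3 at -0.43.

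**Figure D3:**
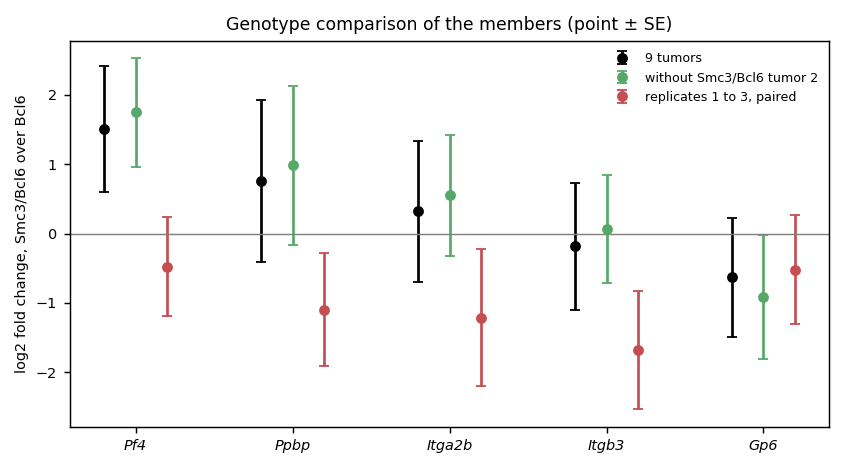
Points are log2 fold changes of Smc3/Bcl6 over Bcl6 from edgeR (y axis) with their SE as bars, for the 5 members that passed the filter (x axis), with all 9 tumors (black), without Smc3/Bcl6 tumor 2 (green) and in the paired fit of replicates 1 to 3 (red). Pf4, Ppbp and Itga2b lie above 0 in the first 2 fits and below 0 in the paired fit, and Gp6 lies below 0 in all 3.

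Alas2 and Mpo differed in their highest tumor. Alas2 had 3.08, 92.5 and 83.1 CPM in Bcl6 and 7.30 to 996 CPM (median 110.5) in Smc3/Bcl6, with tumors 4 (996 CPM), 6 (317 CPM) and 2 (198 CPM) the highest. Mpo had 1.50, 0.863 and 209 CPM in Bcl6 and 0.394 to 17.6 CPM (median 3.10) in Smc3/Bcl6. Within Smc3/Bcl6, tumors 6 (17.6 CPM) and 4 (4.58 CPM) were the highest for Mpo, below only Bcl6 tumor 3 among all tumors. The tumors with the most Pf4, Itga2b, Gp9 and Gp1bb were thus the 2 with the most Alas2, and also those with the most Mpo after Bcl6 tumor 3. Bcl6 tumor 3, which had the most Mpo, ranked 6 for Pf4 and 2 for Ppbp. Smc3/Bcl6 tumor 2, which ranked 3 for Alas2, was last for 5 members and tied for last for Gp1bb. Its erythroid genes other than Alas2 and the globins were also low, with a mean log2 CPM of 0.143 against 6.21 and 5.40 in tumors 4 and 6.

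Over all 9 tumors none of the 7 members had a correlation with Alas2 past an exact permutation p of 0.05, among 14 relations tested (7 with each marker). With the mean of the other erythroid genes in place of Alas2 the count was 4 of 7, and with the erythroid genes other than Alas2 and the globins 5 of 7. On both averages the tumors fall into separate clusters, with Smc3/Bcl6 tumors 4 and 6 in the upper one. No share of all genes past this level is given for these averages, so the counts are not read as relations. The values that follow are with Alas2 itself. Pf4 had r = 0.437 (exact permutation p = 0.245; rho = 0.283, p = 0.463), and r = 0.203 without the 2 tumors farthest from the median of Alas2. Itga2b had r = 0.391 (exact permutation p = 0.295; rho = 0.5, p = 0.178; r = 0.150 without the 2 farthest), and without Smc3/Bcl6 tumor 2 it had r = 0.795 (exact permutation p = 0.0223). Itgb3 and Gp6 were the least related, with r = 0.0746 and r = 0.104 (exact permutation p = 0.845 and p = 0.786). Ppbp, Gp9 and Gp1bb lay between, at 0.311, 0.379 and 0.380. Of all genes tested, 8.51% had an r with Alas2 at least that of Pf4 and 38.9% at least that of Itgb3. Within the 7 tumors labelled lymph node r ran from -0.588 (Gp6) to 0.558 (Gp1bb), and within the 6 Smc3/Bcl6 tumors from -0.164 (Gp6) to 0.539 (Pf4), with exact permutation p-values of at least 0.148. The mesenteric label covers 2 tumors and Bcl6 3, too few for a value.

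With Mpo the closest member was Ppbp (r = 0.666, exact permutation p = 0.0823; rho = 0.783, p = 0.0172; r = 0.656 without the 2 tumors farthest from the median of Mpo). Only 0.683% of all genes had an r with Mpo at least as high. Within the 6 Smc3/Bcl6 tumors r was 0.879 (exact permutation p = 0.0250) and within the 7 tumors labelled lymph node 0.703 (exact permutation p = 0.123). Gp1bb had r = 0.499 (exact permutation p = 0.163) with rho = 0.753 (p = 0.0239, exact), and Itga2b r = 0.541 (exact permutation p = 0.114; rho = 0.617, p = 0.0857; r = 0.254 without the 2 farthest). Pf4, which shares its granule and its locus with Ppbp, had r = 0.159 (exact permutation p = 0.655), and the difference between these 2 correlations was not tested. Single libraries moved these values past the threshold. Without Bcl6 tumor 3 Ppbp had r = 0.856 (exact permutation p = 0.0126) and Gp1bb r = 0.726 (exact permutation p = 0.0421), and without Smc3/Bcl6 tumor 6 Ppbp had r = 0.675 (exact permutation p = 0.0221).

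**Figure D4:**
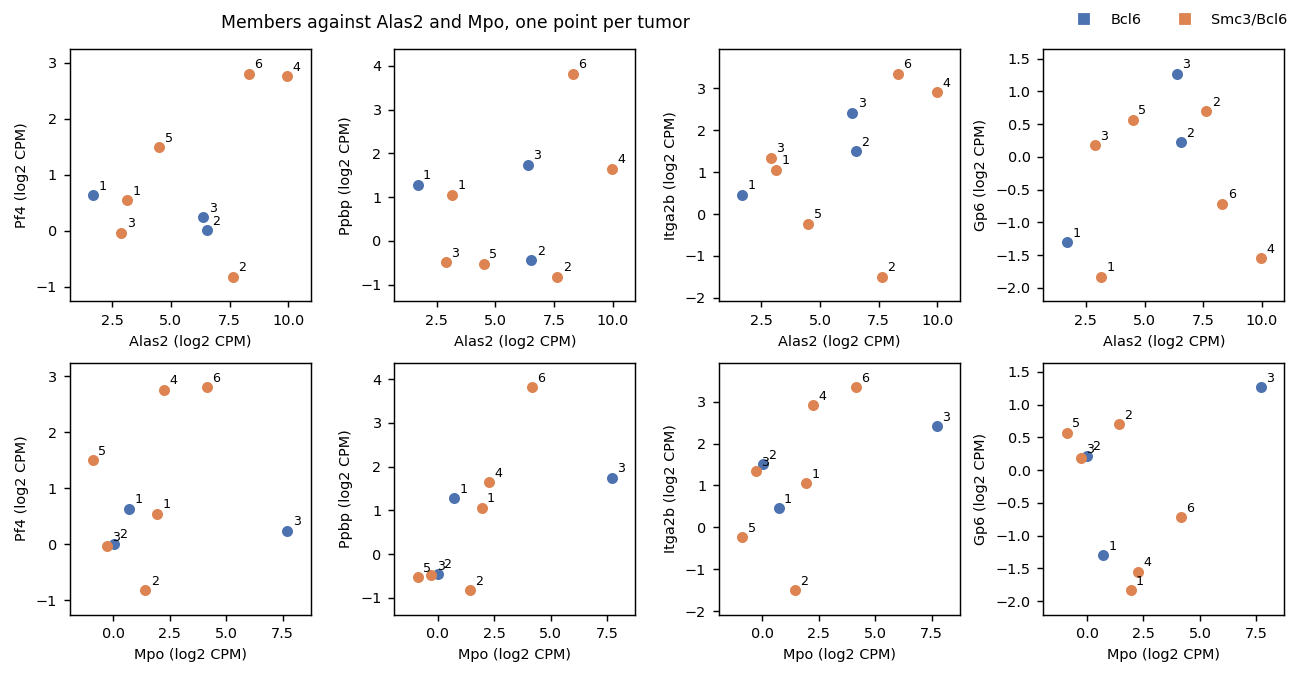
Each point is a tumor (blue Bcl6, orange Smc3/Bcl6, with its number), with the log2 CPM of Alas2 (upper row) or Mpo (lower row) on the x axis and that of Pf4, Ppbp, Itga2b or Gp6 on the y axis. Smc3/Bcl6 tumors 4 and 6 lie at the upper right of the Alas2 panels of Pf4 and Itga2b while tumor 2 lies at the lower right, and Bcl6 tumor 3 is the isolated point at the right of the Mpo panels.

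Fits of edgeR with the marker's log2 CPM as a continuous term over all genes gave slopes in the same direction. Per log2 unit of Alas2, the log2 level of Itga2b differed by 0.31 (SE 0.15, unadjusted p = 0.0625), that of Pf4 by 0.28 (SE 0.13, unadjusted p = 0.0527) and that of Ppbp by 0.28 (SE 0.18, unadjusted p = 0.142), against 0.06 for Itgb3, 0.07 for Gp6 and a median of 0.01 over all genes, and each adjusted p of the 5 members was 1.00 in these edgeR fits (quasi-likelihood test, Benjamini-Hochberg). Without Smc3/Bcl6 tumor 2 the slopes of Itga2b and Pf4 were 0.36 (unadjusted p = 0.00588, adjusted p = 0.296) and 0.32 (unadjusted p = 0.0150, adjusted p = 0.322). Without Smc3/Bcl6 tumor 6 the slopes on Alas2 were 0.06 for Ppbp (unadjusted p = 0.686), 0.21 for Pf4 (unadjusted p = 0.122) and 0.23 for Itga2b (unadjusted p = 0.154). Per log2 unit of Mpo, Ppbp differed by 0.59 (SE 0.20, unadjusted p = 0.0138, adjusted p = 1.00 from the same test), Itga2b by 0.35 (SE 0.18, unadjusted p = 0.0794) and Pf4 by 0.18 (unadjusted p = 0.426). None of the 5 members was called at an adjusted p below 0.05 with either marker, where 0.0427% of all genes rose with Alas2 and 0.00711% with Mpo. At an unadjusted p below 0.05 the counts were 0 of 5 with Alas2 (background 2.35% rising and 1.74% falling) and 1 of 5, Ppbp, with Mpo (background 0.889% rising and 0.299% falling). The Ppbp value on Mpo was lost as a call at that level without Smc3/Bcl6 tumor 6 (slope 0.29, unadjusted p = 0.0732), which holds most of its counts, and without the 2 tumors farthest from the median of Mpo (0.69, unadjusted p = 0.0658).

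In the erythroid list behind Alas2, 9 of the 16 genes tested were higher in Smc3/Bcl6 past the study's thresholds and 0 were lower (backgrounds 1.28% and 0.868%), with a median log2 fold change of 3.27. For Alas2 itself the exact permutation p between genotypes was 0.619. Smc3/Bcl6 tumors 4 and 6 were the 2 highest for 13 of the 16, against 7.7% of all genes tested. Each adjusted p was 1.00 in the edgeR quasi-likelihood test. In tumor 2 of Smc3/Bcl6, with its low members, Alas2 stood at 198 CPM. Its erythroid genes other than Alas2 and the globins, however, had a mean log2 CPM of only 0.143. That mean was 6.21 and 5.40 in Smc3/Bcl6 tumors 4 and 6 and at most 1.31 in the others. Averaged over the erythroid genes other than Alas2 and the globins, the 9 tumors fell into separate clusters, with the largest gap taking up 0.562 of the range, so correlations with that average over all 9 tumors are not read as relations.

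Other platelet genes gave a mixed picture. Of 20 such genes found in the table, 14 passed the filter, 0 were higher and 1 was lower in Smc3/Bcl6 past the study's thresholds (backgrounds 1.28% and 0.868%), and their median log2 fold change was 0.04. The gene that passed was P2rx1, an ATP-gated channel of platelets and also of neutrophils (log2 fold change -1.47, SE 0.81, unadjusted p = 0.0982, adjusted p = 1.00 by the quasi-likelihood test of edgeR), which had 12.6 CPM in Bcl6 tumor 3 and 0.946 to 4.12 CPM elsewhere. Of the 14 tested, 4 had Smc3/Bcl6 tumors 4 and 6 as the 2 highest, against 7.7% of all genes tested. Clec1b, the podoplanin receptor of platelets, had 18.5 and 13.5 CPM there and at most 6.23 CPM in the other 7 tumors. Vwf, which platelets and endothelial cells make, had 13.8 and 6.12 CPM in tumors 4 and 6, but also 4.97 CPM in tumor 2. Some platelet genes were hardly seen. Treml1 had 1 count in all 9 libraries together, in Smc3/Bcl6 tumor 6, and the glycoprotein Gp5 had no counts in 4 of the 9 tumors. Where it was seen, Gp5 reached 1.53 CPM in Smc3/Bcl6 tumor 6, its highest value. Others were highest in different tumors, such as Nbeal2, a granule biogenesis gene, with 140 CPM in Bcl6 tumor 3 and 12.7 CPM in Smc3/Bcl6 tumor 2, and the thrombin receptor cofactor F2rl2, with 14.2 CPM in Smc3/Bcl6 tumor 3. The mean log2 CPM of the 14 genes tested had r = 0.755 with Itga2b and 0.750 with Itgb3 over the 9 tumors. With Gp9 it had 0.634, with Gp1bb 0.558, with Ppbp 0.430, with Pf4 0.371 and with Gp6 0.262.

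Among 7 megakaryocyte and erythroid transcription factors, 0 of the 6 tested passed the study's thresholds between genotypes. Gata1 had 0.704, 1.56 and 6.79 CPM in Bcl6, and 17.6 and 9.45 CPM in Smc3/Bcl6 tumors 4 and 6, with the other 4 between 0.315 and 1.80 CPM. Nfe2, which megakaryocytes need to make platelets, had 21.1 and 18.6 CPM in those tumors and 16.7 CPM in Bcl6 tumor 3. Fli1 and Runx1, which B cells also express, ranged from 108 to 211 CPM and from 20.1 to 73.0 CPM. The mean log2 CPM of the 6 factors correlated most with Gp1bb and Ppbp among the members. Ppbp had r = 0.836 (exact permutation p = 0.00564, rho = 0.900 with p = 0.00203), and r = 0.824 without the 2 tumors farthest from the median. Gp1bb, uncertain through its low counts and its overlap with Sept5, had r = 0.854 (exact permutation p = 0.00234, rho = 0.887 with p = 0.00254), and r = 0.681 without the 2 farthest. Itga2b, Gp9, Pf4 and Itgb3 had 0.790, 0.780, 0.668 and 0.556, and Gp6 had -0.368. Without the 2 farthest Pf4 had -0.251. These values were taken from 84 relations computed between the members and 12 marker measures.

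**Figure D5:**
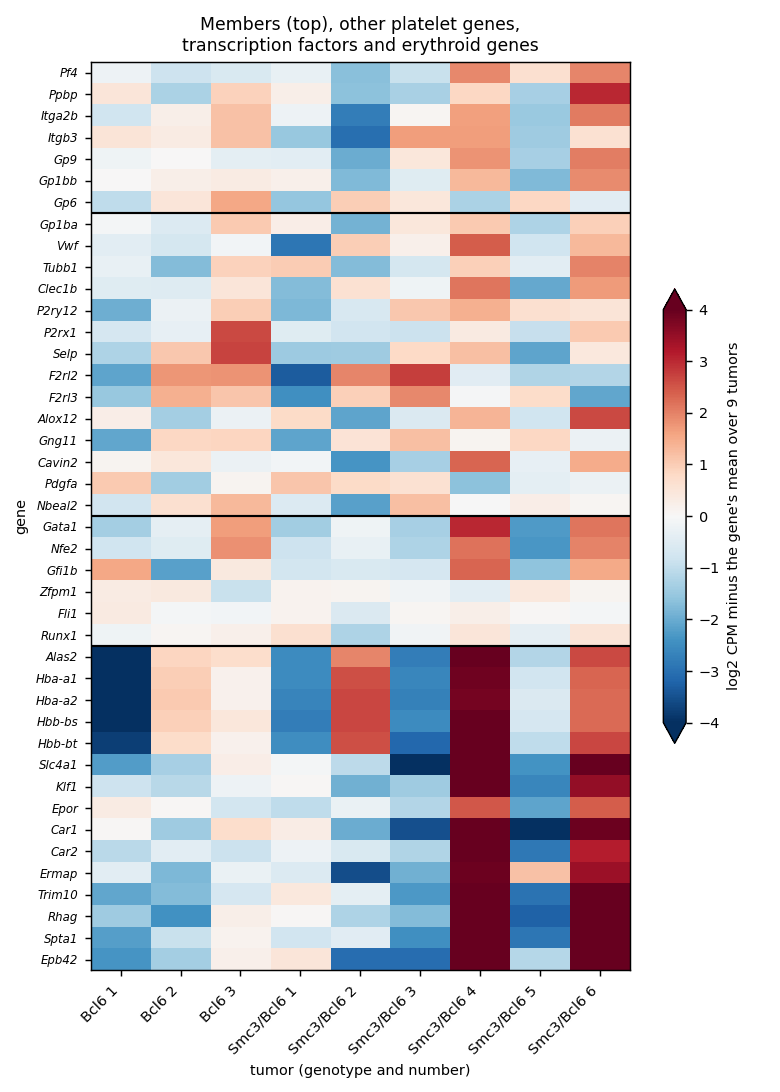
Rows are genes (the 7 members at the top, then other platelet genes, transcription factors and 15 of the 16 erythroid genes that passed the filter) and columns the 9 tumors, and the color is the log2 CPM minus the mean of that gene over the tumors, limited to 4 in either direction. Smc3/Bcl6 tumors 4 and 6 are red in the rows of Pf4, Itga2b, Gp9, Gp1bb, Gata1 and most erythroid genes, and tumor 2 is blue in 6 of the 7 member rows but red for Alas2 and the globin genes.

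Among 12889 genes outside all lists with a mean of at least 1 CPM, the 10 whose log2 CPM was most like the mean of the 7 members over the 9 tumors had r between 0.933 and 0.961. They were Lrrtm2, Zfp597, Irak3, Pdcd4, L1cam, Prkar2b, Cpeb3, Ssx2ip, Gpr34 and Wdfy2. Lrrtm2 came first with r = 0.961 and a level of 0.106 to 2.99 CPM. Prkar2b, a regulatory subunit of protein kinase A, had 22.6 and 20.2 CPM in Smc3/Bcl6 tumors 4 and 6 and 0.634 CPM in tumor 2. The 10 values ran from 0.886 to 0.951 without tumor 2. These are the highest among all candidates, and with 9 tumors such values are given as a description only.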

How the data were processed

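The authors prepared TruSeq libraries, aligned the reads to mm10 with STAR in the nf-core RNA-seq pipeline, counted them per Gencode gene with featureCounts and deposited raw counts per gene without normalization. The strand setting is not given in the sources used here. There were 0 columns that could not be tied to a sample, and 97.9% of its gene identifiers were in GENCODE M21 (GRCm38), which gave positions and exon lengths. Of 97 symbols in the gene lists, 1 was not found, and some listed genes are not reported here by name. The 7 members and all lists were chosen with earlier results of these data known.

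Levels are CPM on TMM-scaled library sizes, and log2 CPM has a prior count of 2. The genotype comparison used edgeR 4.0.16 under R 4.3.3 (its low-count filter by genotype, the quasi-likelihood test without covariates, Benjamini-Hochberg adjustment over 14057 genes), as were slopes on Alas2 and Mpo. Single values were compared by exact two-sided permutation of the genotype labels in all 84 ways (smallest p 0.0238), and correlations over the 362880 orders of the tumors. Intervals on counts are exact Poisson intervals at 95%, the detection limit is 3 counts, and both cover counting error only. Genes named are the members, genes of the lists with values for those past the thresholds and the most and least abundant, and the 10 genes most like the mean of the members. Vwf, Clec1b, Gata1, Nfe2, Gp5 and Prkar2b, all within these lists or the 10, were given values after these had been seen.

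Deviations from the genotype means correlated between tumors with the same replicate number at r = 0.443, 0.113 and 0.155 across genes, all above 0.1, the criterion set. Values between tumors with different numbers are not given here. The values at the same number therefore do not show that the numbers, which come only from the labels, pair the tumors. Another 26 settings were listed, including DESeq2 1.42.0 and limma 3.58.1, each tumor left out in turn and the replicate block, and 3 more, giving 4 settings, were added after seeing the data. The scripts were tested on simulated data.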

Additional observations from a re-analysis of the deposited data

How the results depend on the processing

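Under the alternatives that keep all 9 tumors and their genotypes, the members stayed on the same side of the study's thresholds except Pf4, so that 1 member was higher with DESeq2 and with limma voom and quality weights. Over all genes, the counts higher and lower were 180 and 122, and became 576 and 812 with no filter on low counts, 342 higher with DESeq2, 642 and 1002 with limma and quality weights, and 192 lower with the tissue label as a covariate. With the replicate block over replicates 1 to 3 they were 45 and 254, 1 member (Itgb3) was lower, and the log2 fold changes of Pf4, Ppbp and Itga2b were -0.47, -1.09 and -1.21, and -0.36, -1.07 and -1.02 in the same tumors without pairing. The block changed no other member's call.

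Leaving out each tumor in turn gave 84 to 339 genes higher (lowest without Bcl6 tumor 2, 98 without Smc3/Bcl6 tumor 6, 303 without tumor 3, highest without tumor 2) and 61 to 321 lower (lowest without Smc3/Bcl6 tumor 6, highest without tumor 3, 240 without Bcl6 tumor 1, 194 without Smc3/Bcl6 tumor 2), and 0 to 1 members higher. The log2 fold changes ran from -0.63 to 1.25 for Ppbp (negative without Smc3/Bcl6 tumor 6), -0.25 to 0.94 for Itga2b, -0.62 to 0.12 for Itgb3 and -1.17 to 0.22 for Gp6 (positive without Bcl6 tumor 3).

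For Alas2, 6 genes rose in all, and 15 with the mean of the other erythroid genes or 3 in the Smc3/Bcl6 tumors alone. The slope of Gp6 on Alas2 was -0.23, -0.11 and -0.25 with that mean, in the Smc3/Bcl6 tumors and in the 7 tumors labelled lymph node, and -0.0787 to 0.251 with each tumor left out, and that of Itgb3 was -0.11 without the 2 farthest tumors and -0.0800 to 0.176 with each left out. For Mpo, 1 gene rose, and 2 with a prior count of 5, 10 with the mean of the other granulocyte genes, 0 with genotype as a covariate, without the 2 farthest tumors, in the Smc3/Bcl6 tumors and in the tumors labelled lymph node, and 0 to 2 with each left out. The slope of Gp6 on Mpo was -0.67 without the 2 farthest, -0.38 in the Smc3/Bcl6 tumors and -0.36 to 0.14 with each left out.

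The correlation of Gp6 with Alas2 was -0.164 in the Smc3/Bcl6 tumors, -0.588 in those labelled lymph node and -0.10 to 0.48 with each left out, and that of Itgb3 was -0.114 without the 2 farthest, -0.0013 in those labelled lymph node, -0.0055 with the mean of Alas2 and the globin genes and -0.20 to 0.37 with each left out. With Mpo, Gp6 had -0.689 without the 2 farthest, -0.580 in the Smc3/Bcl6 tumors, a rho of -0.0833, -0.0784 with the mean of the other granulocyte genes and -0.54 to 0.32 with each left out, Itgb3 had -0.0806 without the 2 farthest, and Pf4 -0.0344 to 0.546 with each left out. The members past an exact permutation p of 0.05 numbered 0 for both markers, 0 to 1 for Alas2 and 0 to 2 for Mpo with each tumor left out (2 without Bcl6 tumor 3), 2 for Mpo by rho (Ppbp and Gp1bb) and 1 in the Smc3/Bcl6 tumors (Ppbp). With the mean of the other erythroid genes 4 passed (Pf4, Itga2b, Gp9 and Gp1bb, r = 0.649 to 0.737), and with the erythroid genes other than Alas2 and the globins 5 (these and Ppbp, r = 0.726 to 0.814), and Gp6 had -0.347 and -0.501, but on these averages the tumors fall into separate clusters, so the values are not read as relations. No share of all genes past that level is given for these averages. The causes of these shifts were not tested. Depth limits Gp9, Gp1bb and Gp6, whose counts per tumor did not exceed 33.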

Other observations

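The members were also set beside lists of other cell types, as part of the 84 relations computed between 7 members and 12 marker measures, with unadjusted exact permutation p-values. Gp6 had its highest values there. With the mean of the 5 T-cell genes, Gp6 had r = 0.887 over the 9 tumors (exact permutation p = 0.00726; rho = 0.667, p = 0.0589; r = 0.865 without the 2 tumors farthest from the median). With the mean of the 3 mast cell and basophil genes that passed the filter, it had r = 0.889 (exact permutation p = 0.00304; rho = 0.783, p = 0.0172; r = 0.775 without the 2 farthest). With the mean of the 5 B-cell genes it had r = -0.875 (exact permutation p = 0.00149; rho = -0.9, p = 0.00203; r = -0.798 without the 2 farthest).

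The summed T-cell genes ranged from 24.0 CPM in Smc3/Bcl6 tumor 1, which had the lowest Gp6, to 1549 CPM in Smc3/Bcl6 tumor 2, which had the second highest. Within the 6 Smc3/Bcl6 tumors r of Gp6 with the T-cell mean was 0.898 (exact permutation p = 0.05). Within the 7 tumors labelled lymph node it was 0.804 (exact permutation p = 0.0746). In Smc3/Bcl6 tumor 1, Gp6 had 2 counts, below the detection limit of 3. Pf4 had the opposite sign with the T-cell mean (r = -0.630, exact permutation p = 0.0850; rho = -0.767, p = 0.0214; r = -0.751 without the 2 farthest). With 3 to 24 counts in each Bcl6 tumor and 2 to 19 in each Smc3/Bcl6 tumor, Gp6 is close to the detection limit.

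Among the 13 granulocyte genes found, 12 were tested, 0 were higher and 4 were lower in Smc3/Bcl6 past the study's thresholds (backgrounds 1.28% and 0.868%). The sum over the list was 187, 23.8 and 2335 CPM in Bcl6 tumors 1 to 3 and 13.1 to 984 CPM in Smc3/Bcl6 tumors, so that Bcl6 tumor 3 alone lay above the Smc3/Bcl6 range. Within Smc3/Bcl6 the sum was highest in tumor 4 (984 CPM), followed by tumor 6 (262 CPM), the tumors with the most Pf4 and Itga2b. The 5 stem and progenitor genes (Kit, Cd34, Meis1, Hoxa9 and Mecom) summed to 268 CPM in Smc3/Bcl6 tumor 6, which had the most Pf4, Ppbp and Itga2b, to 162 CPM in tumor 1, where Itga2b had 1.94 CPM, and to 33.2 CPM in tumor 4. None of the 4 tested passed the study's thresholds between genotypes.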
